A study of Homo sapiens with 42 samples.

Results

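P291L is a change of proline to leucine in RPL3L, a ribosomal protein of heart and skeletal muscle. Cells making this variant were compared with cells making wild-type RPL3L, gene by gene, in the human line AC16. The comparison took in every gene with a mean of at least 1 TPM (a transcript's share of all transcripts, scaled to a fixed total) over the 6 libraries, 14334 of 60606 genes (23.7%). Of these, 11561 were protein-coding, 789 non-coding, 641 pseudogenes, 381 small RNAs, 949 known only by a clone name and 13 without a type. At the edge of that limit lay PRPH2 at 1.001 TPM inside it and ZNF790 at 0.99953 TPM outside it.

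RPL3 and RPL3L are paralogs, and a ribosome carries one of them at a single place in its large subunit, with a loop that reaches toward the centre where peptide bonds are formed. RPL3 is made in nearly all tissues, while RPL3L takes its place in striated muscle. Inherited RPL3L variants have been linked to dilated cardiomyopathy in children.

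All cells of the comparison carried a lentiviral hairpin against RPL3, switched on by doxycycline at 1 ug/ml and kept by hygromycin selection. The P291L group carried in addition a lentiviral construct for RPL3L with P291L, which its labels call doxycycline-inducible (genotype shRPL3;RPL3L-P291L). The RPL3L-WT group carried the wild-type RPL3L construct on the same hairpin background. Its titles give the term doxycycline-inducible before the hairpin and do not repeat it before RPL3L wild type. The labels do not say whether the constructs differ in this. Construct cells were sorted on the BV421 channel, and the labels do not say whether a line is 1 clone or a pool. Used beside them were 18 libraries of the other 6 variants (G27D, R161W, T189M, D308N, D308V and R343W, each with the hairpin), 3 with the hairpin alone (shRPL3) and 3 with a scrambled hairpin (shScramble). Each of the 10 groups had 3 libraries of polyA RNA. No label ties replicates to separate cultures, so every p-value measures the spread between these libraries, which may be technical. TPM keep no depth, so the depth of the libraries is unknown.

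The altered codon is shown with 10 codons on each side, since the labels name it as a difference between the RPL3L sequences, beside the same stretch of RPL3. Both were read 5′ to 3′ on the coding strand from GRCh38 with GENCODE 29, and capitals mark the codon of P291L, which encodes proline in RPL3L and tyrosine in RPL3.
RPL3L, codons 281 to 301, P291L codon at chr16:1946703-1946705, minus strand, exon 7: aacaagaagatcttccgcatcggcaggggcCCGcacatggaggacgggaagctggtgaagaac
RPL3, codons 281 to 301, same codon at chr22:39314185-39314187, minus strand, exon 7: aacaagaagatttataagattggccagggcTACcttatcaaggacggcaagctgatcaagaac
The 2 windows differed at 19 of 63 bases, an identity of 69.8%, against 75.6% over the 1212 aligned bases of the whole coding sequences, which have 407 codons in RPL3L and 403 in RPL3. The leucine codon used in the construct is not given in the sources used here, and reads were not examined, so the RPL3L values below do not tell the variant from the wild-type transcript.

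AC16 is labelled cardiomyocyte-like, yet 16 of 18 cardiomyocyte markers stayed under 1 TPM in all 6 libraries, among them the myosin heavy chains MYH6 and MYH7 and the troponin TNNT2, and MYL2 and TBX5 were at 0. The exceptions were GATA4, with means of 2.07 TPM in P291L and 2.28 TPM in RPL3L-WT, and NPPB, with 2.08 and 0.697 TPM. NPPB met the limit of 1 TPM over the 6 libraries only through P291L. In the limma fits described below, neither passed with a term for the kind of library, and 1 was higher without it. Summed over the 18, the markers held 5.14 to 6.76 TPM in P291L and 4.31 to 5.02 TPM in RPL3L-WT. Fibroblast and smooth muscle markers were abundant, with sums over 14 genes of 7367 to 7462 TPM in P291L and 7071 to 7319 TPM in RPL3L-WT. Endothelial and blood markers summed to at most 2.45 and 2.22 TPM in any of the 6 libraries.

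The libraries were of 2 kinds that no label names. Along the first principal component of 639 pseudogenes, 6 libraries stood 18.04 away from the other 24, where the next widest gap was 1.52. RPL3L-WT 1 and 2 belong to these 6, with G27D 3, R161W 1 and T189M 1 and 2. RPL3L-WT 3 and all P291L libraries belong to the 24, called the first kind here. The kinds differed past the threshold in 8315 of the 14334 genes (58.0%). The typical gene differed between 2 P291L libraries by 0.09 (median absolute log2 difference), between a P291L library and RPL3L-WT 3 by 0.13 to 0.14, and between a P291L library and RPL3L-WT 1 or 2 by 0.29 to 0.30. Results are therefore given from limma over all 30 libraries with the kind as a term, and it is said which of these calls were lost in the 24 first-kind libraries, in which RPL3L-WT 3 stands alone and is assumed to vary like the other groups.

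RPL3L RNA was abundant in both groups and was higher in each P291L library than in each RPL3L-WT library. It stood at 4285, 4338 and 4263 TPM in P291L 1, 2 and 3, against 2982, 2791 and 3798 TPM in RPL3L-WT 1, 2 and 3. An exact two-sided permutation test of the 6 values gave p = 0.1, the smallest that 3 against 3 allow. With the kind term the log2 difference was 0.21 (limma adjusted p = 0.965), and against RPL3L-WT 3 alone it was 0.18. The spread behind that adjusted p includes shRPL3 3, a library labelled with the hairpin alone that held RPL3L at 121 TPM and the construct's entries rtTA3 and EBFP2 at 428 and 434 TPM, and without that library it was 0.0546. RPL3L was not past the threshold in any of these.

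The 2 other products of the construct were measured as separate entries. The transactivator rtTA3 averaged 15194 ± 278 TPM in P291L (SD, n = 3) and stood at 13343 TPM in RPL3L-WT 3. The blue fluorescent protein EBFP2 averaged 15029.5 ± 280.4 TPM in P291L and stood at 13066 TPM in RPL3L-WT 3. RPL3L relative to rtTA3 was 0.283 in P291L and 0.285 in RPL3L-WT 3, so all 3 entries stood about as far above that library. In RPL3L-WT 1 and 2 EBFP2 was at 17354 and 17735 TPM and rtTA3 at 11028 and 11297 TPM, an unequal shift that the second-kind libraries share.

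RPL3, the hairpin's target, did not differ between the groups past the threshold. It stood at 679, 685 and 658 TPM in P291L, against 445, 439 and 673 TPM in RPL3L-WT. RPL3L-WT 3 lay within the P291L range, and the second-kind libraries lay below it. The log2 difference was -0.02 with the kind term (SE 0.04, limma adjusted p = 0.856) and 0.00 against RPL3L-WT 3 alone. Both group means were below the 1570.2 ± 38.8 TPM of shScramble (SD, n = 3). RPL3 and RPL3L have related sequences and RPL3 has processed pseudogenes, so reads can be split among them. TetR, carried by the hairpin vector, averaged 912 ± 31.1 TPM in P291L and 1085 ± 38.2 TPM in RPL3L-WT (exact permutation p = 0.1). Other entries of that vector were not lower in P291L by group mean. IRES averaged 590 ± 13.6 TPM in P291L and 581 ± 106 TPM in RPL3L-WT. HygR averaged 614 ± 10.9 TPM in P291L and 506 ± 173 TPM in RPL3L-WT (exact permutation p = 0.4). RPL3L-WT 3 lay above the P291L libraries for TetR, IRES and HygR, at 1125, 703 and 706 TPM. The second-kind RPL3L-WT libraries lay below them for IRES and HygR.

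**Figure D1:**
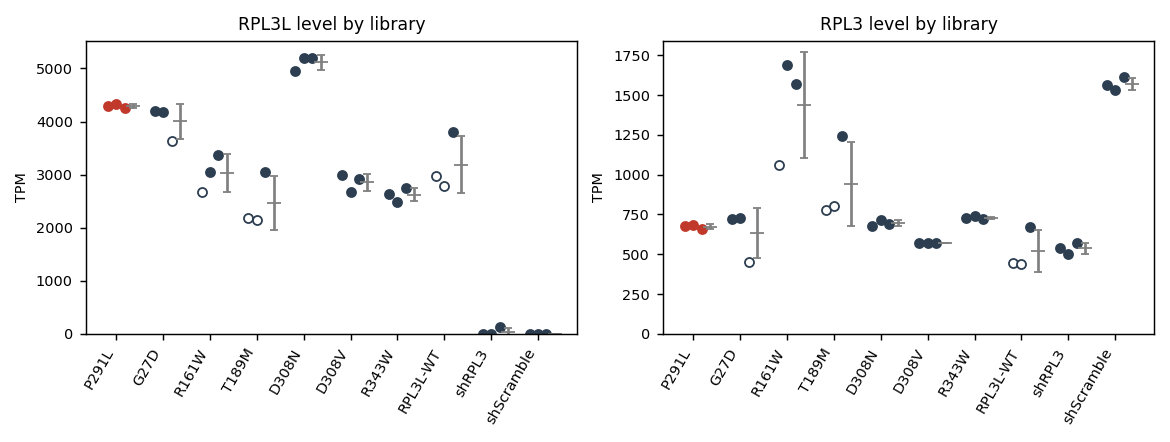
RPL3L (left) and RPL3 (right) in TPM in every whole-cell library; filled points are first-kind and open points second-kind libraries, and grey bars are the group mean ± SD of 3. All P291L points (red) lie above the RPL3L-WT points for RPL3L, and for RPL3 they lie at the level of the filled RPL3L-WT point.

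Few genes differed between P291L and wild-type RPL3L, and most differences were small. With the kind term, 125 genes were higher in P291L (0.872% of those tested) and 170 lower (1.19%), 295 in all (2.06%), at a limma adjusted p under 0.05. The median log2 difference was 0.43 among the higher and -0.32 among the lower, and 21 genes (0.147%) differed by at least 1. Against RPL3L-WT 3 alone, 41 genes were higher (0.286%) and 105 lower (0.733%), 146 in all (1.02%). Both fits called 37 genes higher (0.258%) and 69 lower (0.481%), 106 in all (0.74%). All 295 had the same sign against RPL3L-WT 3, but that library enters both fits. Without the kind term the counts were 249 higher (1.74%) and 160 lower (1.12%), 409 in all (2.85%). With the kind term but without P291L 1, 2 or 3 in turn, 72, 73 and 70 genes were higher and 105, 94 and 107 lower, and without RPL3L-WT 3 there were 108 lower. The libraries of the 2 groups did not overlap for 226 of the 295 genes, and for 26.2% of all genes tested.

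**Figure D2:**
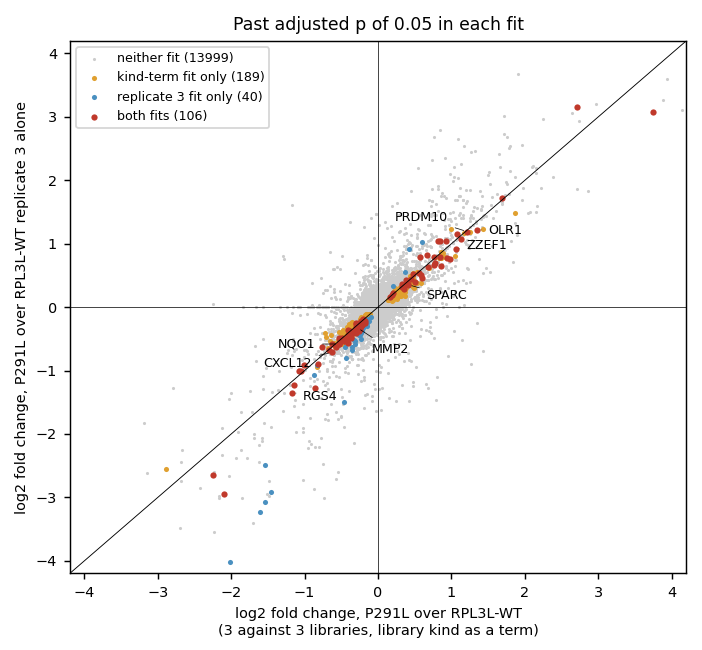
Each point is 1 of 14334 genes, with its log2 fold change of P291L over RPL3L-WT with the kind term (x axis) and against RPL3L-WT 3 alone (y axis); colours show in which fit it passed an adjusted p of 0.05 and the line marks equal values. The 106 genes called in both fits (red) lie near the line, with OLR1 and PRDM10 among the highest and RGS4 among the lowest of the labelled genes.

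The genes described next were called in both fits with the same sign, did not overlap between the groups, had a mean of 5 TPM or more in 1 of the groups and are known by more than a clone, pseudogene or small RNA name. Of the 28 higher and 38 lower genes that met this, the 12 with the largest fold change each way are given. Fold changes are P291L over RPL3L-WT on the log2(TPM + 1) scale, which understates those of genes with low TPM. In bulk RNA, fewer cells making a transcript and less of it per cell cannot be told apart.

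Among surface receptors and secreted ligands, OLR1 and GDF6 rose in P291L, and CXCL12, FZD6 and PTX3 fell. OLR1 (chromosome 12, 10158301 to 10172138, minus strand) encodes LOX-1, a receptor for oxidised LDL. It stood at 11.7, 11.8 and 10.0 TPM in the P291L libraries, against 2.98, 3.43 and 4.22 TPM in the RPL3L-WT libraries. Each P291L library held more than any RPL3L-WT library, and the log2 fold change was 1.35 (SE 0.14, limma adjusted p = 2.11e-06) with the kind term and 1.22 (adjusted p = 3.81e-04) against RPL3L-WT 3. GDF6, a growth factor of the bone morphogenetic protein family, had 5.01, 5.37 and 4.86 TPM in P291L and 2.17, 1.41 and 2.53 TPM in RPL3L-WT. Its levels were low and its log2 fold change was 0.94 (SE 0.12, limma adjusted p = 8.55e-05), or 0.78 (adjusted p = 0.00883) against RPL3L-WT 3. CXCL12 (chromosome 10, 44370165 to 44386493, minus strand), the chemokine that binds CXCR4, had 107, 112 and 116 TPM in P291L, against 136, 139.9 and 184 TPM in RPL3L-WT. RPL3L-WT 3 was the highest of the 6, and the fold change was larger against it, -0.71 (adjusted p = 3.40e-05), than with the kind term, -0.63 (SE 0.06, limma adjusted p = 1.40e-06). FZD6, a Wnt receptor, had 8.82, 9.004 and 10.4 TPM in P291L and 12.02, 10.9 and 14.2 TPM in RPL3L-WT, a log2 fold change of -0.51 (SE 0.09, limma adjusted p = 0.00287). PTX3, a secreted pentraxin of innate immunity, had 26.2, 24.7 and 25.0 TPM in P291L and 34.8, 31.1 and 35.8 TPM in RPL3L-WT, a log2 fold change of -0.50 (SE 0.07, limma adjusted p = 2.40e-04). The P291L libraries lay below all RPL3L-WT libraries for both, by a narrower gap for FZD6.

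RGS4 showed the largest fall of any gene that met the rule. RGS4 (chromosome 1, 163068775 to 163076802, plus strand) speeds GTP hydrolysis by G protein alpha subunits and so ends their signal. It had 23.2, 23.1 and 26.0 TPM in P291L, against 56.2, 64.3 and 62.8 TPM in RPL3L-WT, and no library came near the other group. Its log2 fold change was -1.17 (SE 0.11, limma adjusted p = 4.70e-07), and against RPL3L-WT 3 alone it was -1.35 (adjusted p = 2.45e-05). Of the other 10 RGS genes tested, limma called 0 in either direction, and 0 had an unadjusted p under 0.05. SH2B3, the adaptor LNK that restrains cytokine receptor signals, had 11.6, 12.03 and 12.2 TPM in P291L and 12.3, 13.0 and 17.5 TPM in RPL3L-WT. PSD3, an exchange factor for the small GTPase ARF6, had 9.67, 10.5 and 10.0 TPM in P291L and 11.7, 11.8 and 15.6 TPM in RPL3L-WT. For both genes RPL3L-WT 1 and 2 lay close above the P291L libraries and RPL3L-WT 3 farther off. The log2 fold change was -0.43 (SE 0.06, limma adjusted p = 4.08e-04) for SH2B3 and -0.54 (SE 0.10, limma adjusted p = 0.00287) for PSD3, and without the kind term neither passed (SH2B3 -0.22, adjusted p = 0.160, and PSD3 -0.33, adjusted p = 0.105).

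Genes of nuclear and RNA-binding proteins moved both ways. PRDM10 (chromosome 11, 129899706 to 130002835, minus strand), a zinc finger transcription factor with a PR domain, had 7.83, 7.98 and 7.77 TPM in P291L, against 2.43, 2.81 and 2.88 TPM in RPL3L-WT. Both groups were tight and far apart, and the log2 fold change was 1.21 (SE 0.10, limma adjusted p = 9.44e-08), or 1.19 (adjusted p = 5.92e-05) against RPL3L-WT 3. LIN28A, which blocks maturation of let-7 microRNAs, had 5.50, 4.96 and 5.04 TPM in P291L and 2.71, 2.18 and 1.99 TPM in RPL3L-WT. Here RPL3L-WT 3 was the lowest library, and the log2 fold change was 0.92 (SE 0.12, limma adjusted p = 9.41e-05), or 1.04 (adjusted p = 8.64e-04) against that library. CGGBP1, which binds CGG repeats in DNA, had 96.9, 90.8 and 95.7 TPM in P291L and 146, 141 and 147 TPM in RPL3L-WT. The 3 RPL3L-WT libraries were alike for CGGBP1 in spite of their kinds, and the log2 fold change was -0.58 (SE 0.06, limma adjusted p = 1.42e-06), or -0.64 (adjusted p = 5.54e-05) against RPL3L-WT 3. ZZEF1, a large protein with ZZ zinc fingers and an EF hand, had 32.1, 31.0 and 33.4 TPM in P291L, against 11.1, 9.84 and 16.6 TPM in RPL3L-WT. RPL3L-WT 3 was the nearest library to the P291L values, and against it the log2 fold change was 0.91 (adjusted p = 6.48e-05), where it was 1.06 (SE 0.09, limma adjusted p = 2.65e-07) with the kind term.

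Junction, muscle and cytoskeletal genes named by the rule included 2 that rose and 2 that fell. PKP2, the desmosomal plakophilin of cardiac intercalated discs, had 6.70, 6.602 and 7.46 TPM in P291L and 3.09, 4.71 and 3.57 TPM in RPL3L-WT, a log2 fold change of 0.84 (SE 0.14, limma adjusted p = 0.00137) and 0.79 (adjusted p = 0.0280) against RPL3L-WT 3. IGFN1, an immunoglobulin and fibronectin domain protein of skeletal muscle sarcomeres, had 15.6, 16.6 and 15.7 TPM in P291L and 8.92, 8.81 and 8.57 TPM in RPL3L-WT. The groups did not overlap for either gene. IGFN1 had a log2 fold change of 0.67 (SE 0.14, limma adjusted p = 0.0118), and without RPL3L-WT 3 it was 0.51 and no longer passed (adjusted p = 0.144). DPYSL2, a tubulin-binding protein also called CRMP2, had 32.8, 32.9 and 32.6 TPM in P291L and 38.1, 35.8 and 46.9 TPM in RPL3L-WT. Its P291L libraries were nearly identical, and its log2 fold change was -0.46 (SE 0.05, limma adjusted p = 3.27e-06), or -0.28 without the kind term, where it did not pass (adjusted p = 0.0784). CFAP251, a protein of cilia and flagella, had 14.0, 14.5 and 14.1 TPM in P291L and 17.98, 19.8 and 20.8 TPM in RPL3L-WT, a log2 fold change of -0.48 (SE 0.08, limma adjusted p = 6.22e-04).

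Membrane and lipid genes named by the rule also moved both ways. CASD1, the Golgi enzyme that O-acetylates sialic acids, had 11.4, 10.1 and 11.8 TPM in P291L, against 3.46, 3.54 and 6.12 TPM in RPL3L-WT. RPL3L-WT 1 and 2 lay below RPL3L-WT 3, and the log2 fold change was 0.97 (SE 0.11, limma adjusted p = 6.48e-06) with the kind term and 0.76 (adjusted p = 0.00163) against RPL3L-WT 3. SLC12A8, of the cation-chloride cotransporter family, had 34.9, 35.7 and 37.1 TPM in P291L and 15.0, 15.4 and 22.7 TPM in RPL3L-WT, a log2 fold change of 0.68 (SE 0.12, limma adjusted p = 0.00167). It passed narrowly against RPL3L-WT 3, at 0.64 (adjusted p = 0.0479). G0S2, an inhibitor of the lipase ATGL, had 11.0, 11.1 and 10.6 TPM in P291L and 20.5, 18.6 and 15.7 TPM in RPL3L-WT, and REEP2, which shapes endoplasmic reticulum tubules, had 8.81, 8.76 and 8.53 TPM in P291L and 15.0, 9.48 and 13.5 TPM in RPL3L-WT. For G0S2 the nearest library to the P291L values was RPL3L-WT 3, and for REEP2 it was RPL3L-WT 2. The log2 fold change was -0.54 (SE 0.10, limma adjusted p = 0.00431) for G0S2 and -0.63 (SE 0.12, limma adjusted p = 0.00315) for REEP2.

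The remaining genes named by the rule are PLAC8, KCTD9, ANXA8L1 and FAM167A. KCTD9, a BTB domain protein, had 105, 103 and 105 TPM in P291L and 57.6, 53.4 and 65.5 TPM in RPL3L-WT, a log2 fold change of 0.76 (SE 0.09, limma adjusted p = 7.40e-06). It was the most abundant of the 12 higher genes, with P291L libraries within 3 TPM of each other. PLAC8, a small cysteine-rich protein, had 69.8, 73.0 and 67.7 TPM in P291L and 52.0, 31.8 and 44.2 TPM in RPL3L-WT, a log2 fold change of 0.85 (SE 0.13, limma adjusted p = 4.28e-04). FAM167A had 7.35, 7.15 and 7.92 TPM in P291L and 10.9, 9.03 and 11.3 TPM in RPL3L-WT, a log2 fold change of -0.46 (SE 0.08, limma adjusted p = 0.00191). ANXA8L1, an annexin, had 16.1, 17.2 and 18.9 TPM in P291L and 10.3, 7.01 and 9.64 TPM in RPL3L-WT, and its values are uncertain because ANXA8 has nearly the same sequence. Over the 24 genes named so far, the adjusted p against RPL3L-WT 3 alone ran up to 0.0479, that of SLC12A8.

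**Figure D3:**
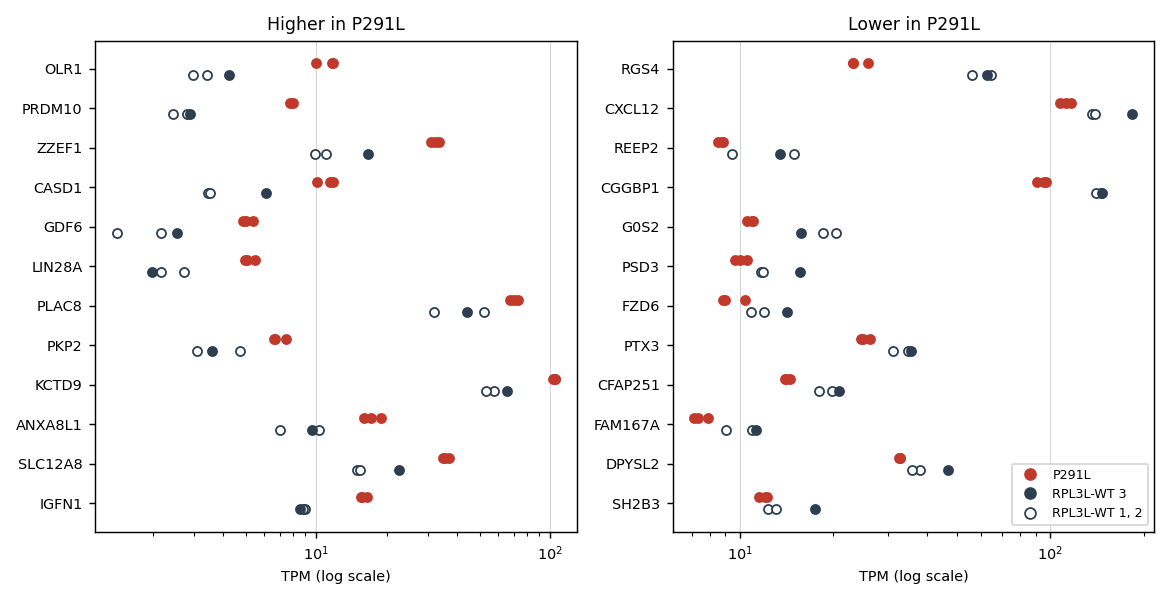
TPM on a log axis in the 3 P291L libraries (red), RPL3L-WT 3 (filled dark) and RPL3L-WT 1 and 2 (open) for the 12 genes with the largest fold change each way under the naming rule. By the naming rule no red point overlaps the dark or open points in any of the 24 genes. The gap is wide for OLR1, PRDM10 and RGS4.

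Some genes past the threshold in both fits averaged under 5 TPM, and 3 of them are named here after their values were seen. The olfactory receptor gene OR51M1 averaged 2.31 ± 0.327 TPM in P291L and 0.0406 ± 0.0703 TPM in RPL3L-WT (SD, n = 3), so it was near 0 in the RPL3L-WT libraries. OR51M1 met the limit of a mean of 1 TPM over the 6 libraries only through P291L. That limit favours a rise in such a gene, so its values are given as levels only. EMC10, a subunit of the complex that inserts membrane proteins, averaged 1.61 ± 0.393 TPM in P291L and 3.60 ± 0.581 TPM in RPL3L-WT, and GALNT3, which starts mucin-type glycans, averaged 1.57 ± 0.109 TPM in P291L and 3.92 ± 1.11 TPM in RPL3L-WT. Their log2 fold changes were -1.08 (SE 0.15, limma adjusted p = 1.18e-04) and -1.05 (SE 0.19, limma adjusted p = 0.00247). The largest fold changes among the 295 genes were those of short RNAs such as SNORA75, at 8.74 TPM in P291L and 0.569 TPM in RPL3L-WT, whose levels in polyA libraries are uncertain because they lie within host genes. SNORA75 too met the limit only through P291L.

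The other genes of the pathways around the ribosome were read from lists chosen with earlier results of these data known, and each list's counts stand beside the 2.06% called among all genes and the median log2 fold change of -0.01 over all genes (0.09 without the kind term). Among 47 genes for proteins of the large subunit, 2 rose and 0 fell, with a median of -0.00 and a range of -0.17 to 0.21. RPL32 had 2029.7, 2022 and 1977 TPM in P291L and 1548, 1516 and 1729.8 TPM in RPL3L-WT, a log2 fold change of 0.21 (SE 0.04, limma adjusted p = 0.00157) and 0.22 (adjusted p = 0.0395) against RPL3L-WT 3. RPL15 had 2086, 2137 and 2062 TPM in P291L and 1311, 1335 and 1827 TPM in RPL3L-WT, a log2 fold change of 0.19 (SE 0.04, limma adjusted p = 0.00990), but did not pass against RPL3L-WT 3 (0.20 (adjusted p = 0.0937)). Both encode proteins of the same subunit as RPL3, and both have processed pseudogenes that share reads. None of 33 small-subunit genes passed in limma (range -0.10 to 0.10), and 1 higher and 1 lower had an unadjusted p under 0.05. None of 55 factors of 60S assembly passed either (-0.27 to 0.17), with 2 higher and 5 lower at an unadjusted p under 0.05, and none of 55 of 40S assembly (-0.28 to 0.26), with 3 higher and 2 lower. The same held for 31 genes of RNA polymerase I and snoRNPs (-0.27 to 0.19, 2 higher and 7 lower), 23 snoRNA host genes (-0.32 to 0.28, 1 higher and 5 lower) and 67 mitochondrial ribosomal proteins (-0.18 to 0.14, 1 higher and 3 lower). Of 25 genes of ribosome quality control and no-go decay, 1 fell, the segregase VCP, which pulls stalled nascent chains from ribosomes. VCP had a log2 fold change of -0.17 (SE 0.04, limma adjusted p = 0.0286), but not against RPL3L-WT 3 (-0.19 (adjusted p = 0.0829)), and without the kind term its sign turned (0.08).

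Among translation factors, 1 of 46 rose and 0 fell. EEF1A1, which brings aminoacyl-tRNA to the ribosome, had 9798, 10097 and 10042 TPM in P291L and 6802, 6584 and 9142 TPM in RPL3L-WT, a log2 fold change of 0.15 (SE 0.03, limma adjusted p = 0.00114) and 0.13 (adjusted p = 0.0565) against RPL3L-WT 3. Of 20 cytosolic aminoacyl-tRNA synthetases, which charge tRNAs, 0 rose and 4 fell, with a median of -0.05, and 0 of the 4 passed against RPL3L-WT 3 alone. GARS1, the glycine enzyme, had 147, 134 and 141 TPM in P291L and 173, 172 and 171 TPM in RPL3L-WT, a log2 fold change of -0.21 (SE 0.05, limma adjusted p = 0.0362). The libraries of GARS1 did not overlap between the groups, while those of AARS1 (-0.16 (SE 0.04, limma adjusted p = 0.0402)) and FARSB (-0.20 (SE 0.05, limma adjusted p = 0.0495)) did. FARSB had a positive sign without the kind term (0.07).

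In the integrated stress response, ATF4 switches on amino acid genes when translation initiation is held back. Though not by share (4 of 20 synthetases were called), targets of this response held the most calls of any list by number. Of 44 tested, 1 rose and 7 fell, with a median of -0.09 (0.05 without the kind term), and 1 and 4 of these also passed against RPL3L-WT 3 alone. AARS1 and GARS1 are on this list as well as the synthetase list. DDIT4, an inhibitor of mTORC1, had 24.7, 26.8 and 27.5 TPM in P291L and 24.7, 23.3 and 38.6 TPM in RPL3L-WT. RPL3L-WT 1 and 2 lay at or below the lowest P291L library and only RPL3L-WT 3 above them all, so the log2 fold change of -0.52 (SE 0.08, limma adjusted p = 2.49e-04) rests on the kind term and on that library, and without the term it was -0.09 (adjusted p = 0.754). PSAT1, of serine synthesis, showed the same layout, with 33.5, 33.6 and 33.9 TPM in P291L and 28.3, 28.5 and 42.3 TPM in RPL3L-WT. Its log2 fold change was -0.28 (SE 0.05, limma adjusted p = 7.29e-04), and without the kind term the sign turned (0.05). NUPR1, a stress-induced chromatin protein, had 23.9, 30.2 and 28.4 TPM in P291L and 41.9, 39.5 and 36.1 TPM in RPL3L-WT with no overlap, a log2 fold change of -0.53 (SE 0.10, limma adjusted p = 0.00447), but did not pass against RPL3L-WT 3 (-0.39 (adjusted p = 0.181)). SLC1A4, an amino acid transporter, had 7.43, 6.66 and 6.99 TPM in P291L and 8.34, 7.69 and 9.68 TPM in RPL3L-WT, a log2 fold change of -0.38 (SE 0.07, limma adjusted p = 0.00507) and -0.41 (adjusted p = 0.0421) against RPL3L-WT 3. STC2, a secreted glycoprotein named after its values were seen, averaged 236 ± 2.09 TPM in P291L and 261 ± 21.7 TPM in RPL3L-WT, a log2 fold change of -0.26 (SE 0.05, limma adjusted p = 0.00442). The 1 gene that rose was ATF4 itself, also named after its values were seen, at 703 ± 16.3 TPM in P291L and 599 ± 32.6 TPM in RPL3L-WT (SD, n = 3), a log2 fold change of 0.16 (SE 0.03, limma adjusted p = 0.00327) and 0.16 (adjusted p = 0.0361) against RPL3L-WT 3.

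Protein folding and degradation genes hardly differed. None of 23 cytosolic heat shock genes passed in limma (median -0.02, with 1 higher and 3 lower at an unadjusted p under 0.05), and none of 32 proteasome genes (median -0.02, with 0 higher and 3 lower). Of 14 chaperonin genes 1 fell, CCT7 (-0.14 (SE 0.04, limma adjusted p = 0.0356)), which did not pass against RPL3L-WT 3 (adjusted p = 0.103), and of 29 genes of endoplasmic reticulum chaperones and the unfolded protein response 2 fell. These were PDIA6, a disulfide isomerase, at -0.18 (SE 0.04, limma adjusted p = 0.0221), and CALR, the lectin chaperone calreticulin, at -0.11 (SE 0.03, limma adjusted p = 0.0336). CALR had 843, 852 and 845 TPM in P291L, against 1197, 1112 and 912 TPM in RPL3L-WT. Its second-kind libraries were highest, and against RPL3L-WT 3 it did not pass (-0.11 (adjusted p = 0.110)). Of 34 lysosome and autophagy genes 1 rose, GABARAPL1 (0.25 (SE 0.07, limma adjusted p = 0.0450)), and 1 fell, the protease gene CTSZ (-0.24 (SE 0.04, limma adjusted p = 0.00195)), neither of them against RPL3L-WT 3 (adjusted p = 0.167 and 0.0870).

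Extracellular matrix genes moved both ways. Of 44 collagens and matrix genes 4 rose and 3 fell, with a median of 0.00, and 3 and 2 of these passed against RPL3L-WT 3 as well. SPARC, a collagen-binding matricellular protein, had 2315, 2329.5 and 2289 TPM in P291L and 1283, 1274 and 1809.8 TPM in RPL3L-WT. The RPL3L-WT libraries all lay lower, and the log2 fold change was 0.41 (SE 0.03, limma adjusted p = 9.44e-08) and 0.35 (adjusted p = 3.40e-05) against RPL3L-WT 3. LUM, the proteoglycan lumican, had 70.3, 68.1 and 65.5 TPM in P291L and 44.0, 41.8 and 51.1 TPM in RPL3L-WT, a log2 fold change of 0.50 (SE 0.08, limma adjusted p = 4.67e-04). COL12A1, a collagen on fibril surfaces, had 105, 103 and 108 TPM in P291L and 55.6, 69.2 and 77.3 TPM in RPL3L-WT, a log2 fold change of 0.45 (SE 0.08, limma adjusted p = 0.00157). Both passed against RPL3L-WT 3 too, LUM at 0.40 (adjusted p = 0.0177) and COL12A1 at 0.44 (adjusted p = 0.0109), while COL5A2 passed with the kind term (0.24) but not against RPL3L-WT 3 (0.16, adjusted p = 0.189). The genes that fell were the gelatinase MMP2 (-0.28 (SE 0.04, limma adjusted p = 6.22e-04)), the lysyl oxidase LOXL2 (-0.32 (SE 0.07, limma adjusted p = 0.0221)) and the matricellular gene CCN4 (-0.45 (SE 0.10, limma adjusted p = 0.0184)), of which LOXL2 did not pass against RPL3L-WT 3 (adjusted p = 0.123). MMP2, LOXL2 and COL5A2 are named after their values were seen. CCN4 had 5.72, 6.11 and 5.01 TPM in P291L and 5.51, 5.33 and 8.55 TPM in RPL3L-WT, so its groups overlapped. LUM is also a fibroblast marker, and of the 14 fibroblast and smooth muscle markers 2 rose, LUM and CNN1, and 0 fell. Summed over the 14, the markers held 7367 to 7462 TPM in P291L and 7071 to 7319 TPM in RPL3L-WT, ranges that lie next to each other, and their part in the matrix genes was not tested.

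Of 23 genes of the TGF-beta family and its targets, 1 rose and 3 fell, with a median of -0.09. The riser was GDF6, described above. LTBP1, which holds latent TGF-beta in the matrix, had 9.37, 8.84 and 8.93 TPM in P291L and 10.2, 10.9 and 12.9 TPM in RPL3L-WT, a log2 fold change of -0.41 (SE 0.07, limma adjusted p = 0.00137) and -0.47 (adjusted p = 0.00800) against RPL3L-WT 3. FST, the activin-binding protein follistatin, had 21.0, 19.0 and 22.2 TPM in P291L and 16.4, 19.9 and 29.4 TPM in RPL3L-WT, where the groups overlapped and the fall of -0.42 (SE 0.09, limma adjusted p = 0.00997) was seen with the kind term, not without it (-0.04, adjusted p = 0.900). ID1, a target of bone morphogenetic protein signals, had 48.3, 51.6 and 46.4 TPM in P291L and 56.9, 53.4 and 61.0 TPM in RPL3L-WT, a log2 fold change of -0.42 (SE 0.08, limma adjusted p = 0.00522) that did not pass against RPL3L-WT 3 (-0.32 (adjusted p = 0.176)).

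Of 13 muscle contractile and cardiac stress genes, 1 rose and 0 fell, and the median was 0.12. CNN1, the smooth muscle calponin, had 44.1, 46.0 and 43.9 TPM in P291L and 45.8, 48.5 and 32.4 TPM in RPL3L-WT. The P291L libraries lay between RPL3L-WT 3 below and RPL3L-WT 1 and 2 above or level, so the log2 fold change of 0.45 (SE 0.09, limma adjusted p = 0.00522) depends on the kind term, and against RPL3L-WT 3 alone it did not pass (0.45 (adjusted p = 0.0953)). Only 13 of the 36 genes of that list had a mean of 1 TPM or more.

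Lipid and redox genes followed. Of 26 cholesterol synthesis genes 0 rose and 3 fell, with a median of -0.10. FDFT1, squalene synthase, had 121, 117 and 123 TPM in P291L and 123, 117 and 149.8 TPM in RPL3L-WT, a log2 fold change of -0.31 (SE 0.04, limma adjusted p = 2.51e-04) and -0.32 (adjusted p = 0.0123) against RPL3L-WT 3. FDPS, farnesyl diphosphate synthase, had a log2 fold change of -0.21 (SE 0.04, limma adjusted p = 0.00206) and -0.18 (adjusted p = 0.0479) against RPL3L-WT 3, and PMVK, phosphomevalonate kinase, had -0.36 (SE 0.07, limma adjusted p = 0.00362) and -0.25 (adjusted p = 0.175). For all 3 enzymes RPL3L-WT 2 lay within or below the P291L range, and without the kind term none passed (adjusted p = 0.448, 0.682 and 0.477 for FDFT1, FDPS and PMVK). Of 26 genes of fatty acid synthesis and storage, 1 fell, G0S2, described above. Of 12 scavenger and lipoprotein receptors 1 rose, OLR1, and 1 fell, SCARA3, which had 1.76, 2.07 and 1.74 TPM in P291L and 3.67, 3.88 and 3.42 TPM in RPL3L-WT, a log2 fold change of -0.76 (SE 0.11, limma adjusted p = 2.07e-04) and -0.63 (adjusted p = 0.0333) against RPL3L-WT 3. Of 25 NRF2 antioxidant genes 1 rose and 1 fell. NQO1, a quinone reductase, had 185, 176 and 170.4 TPM in P291L and 195, 179 and 265 TPM in RPL3L-WT, a log2 fold change of -0.53 (SE 0.05, limma adjusted p = 4.70e-07) and -0.58 (adjusted p = 2.45e-05) against RPL3L-WT 3. RPL3L-WT 2 lay within the P291L range, and without the kind term NQO1 did not pass (-0.24, adjusted p = 0.208). FTL, the ferritin light chain, had 9119, 9226 and 8829.8 TPM in P291L and 5560.3, 5390.3 and 7325 TPM in RPL3L-WT, a log2 fold change of 0.22 (SE 0.06, limma adjusted p = 0.0420), but not against RPL3L-WT 3 (0.31 (adjusted p = 0.0645)).

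Few cell cycle genes passed the threshold. Of 43 genes of S phase and replication 0 rose and 3 fell, with a median of -0.06, and of 38 genes of G2 and mitosis 1 fell, with a median of -0.09. Without the kind term the medians were 0.03 and 0.02. TYMS, thymidylate synthase, had 247, 239 and 240.2 TPM in P291L and 232, 218 and 314 TPM in RPL3L-WT, a log2 fold change of -0.32 (SE 0.04, limma adjusted p = 1.04e-04) and -0.38 (adjusted p = 0.00137) against RPL3L-WT 3. RPL3L-WT 1 and 2 were below the P291L libraries, so without the kind term it did not pass (-0.06, adjusted p = 0.775). RRM2, of ribonucleotide reductase, had 262, 252 and 246 TPM in P291L and 392.5, 353 and 301 TPM in RPL3L-WT without overlap, a log2 fold change of -0.23 (SE 0.06, limma adjusted p = 0.0432). PCNA, the replication clamp, was at -0.20 (SE 0.05, limma adjusted p = 0.0222), and CCNB2, a mitotic cyclin, at -0.22 (SE 0.05, limma adjusted p = 0.0286). Against RPL3L-WT 3 alone RRM2, PCNA and CCNB2 did not pass (adjusted p = 0.125, 0.0545 and 0.159).

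In energy metabolism, 1 of 34 genes of glycolysis and hypoxia rose and 2 fell. The mitophagy receptors BNIP3L and BNIP3 fell by log2 fold changes of -0.26 (SE 0.05, limma adjusted p = 0.00206) and -0.23 (SE 0.04, limma adjusted p = 0.00220), and both passed against RPL3L-WT 3. BNIP3 had 83.1, 81.0 and 85.2 TPM in P291L and 68.1, 69.9 and 96.9 TPM in RPL3L-WT, and without the kind term its sign turned (0.10). ADM, the vasodilator peptide adrenomedullin, had 171, 164 and 164 TPM in P291L and 136, 136 and 143 TPM in RPL3L-WT, a log2 fold change of 0.21 (SE 0.05, limma adjusted p = 0.0333), which did not pass against RPL3L-WT 3 (0.22 (adjusted p = 0.167)). Of 59 nuclear-encoded genes of oxidative phosphorylation 1 fell, COX4I1 (-0.18 (SE 0.05, limma adjusted p = 0.0396)), whose sign turned without the kind term (0.00), and of 13 mitochondrially encoded mRNAs 1 fell, MT-CO3 (-0.13 (SE 0.03, limma adjusted p = 0.0476)). Neither passed against RPL3L-WT 3 alone (adjusted p = 0.404 for COX4I1 and 0.186 for MT-CO3). None of 28 p53 targets passed in limma (1 higher and 4 lower at an unadjusted p under 0.05), nor any of 33 interferon response genes (2 higher and 1 lower) or 15 genes of NF-kB and cytokines (1 higher and 1 lower).

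P291L was also set against the mean of the other 6 RPL3L variants, a contrast that leaves out the RPL3L-WT libraries but uses the same P291L libraries. Here 3299 genes (23.0%) differed, 1099 higher (7.67%) and 2200 lower (15.3%). Libraries scaled by median ratios in place of TPM alone gave 52.7% of the calls as higher, where the TPM gave 33.3%, so the balance of directions depends on the scaling. The counts of several lists are given for this contrast, and their difference from the counts against RPL3L-WT was not tested. Of 23 cytosolic heat shock genes 15 were higher and 0 lower (median 0.23), and of 23 snoRNA host genes 0 were higher and 14 lower (median -0.28). Of 44 integrated stress response genes 3 were higher and 27 lower (median -0.20), of 44 matrix genes 22 were higher and 9 lower (median 0.12), and of 13 muscle genes 9 were higher and 0 lower (median 0.17). Of 14 fibroblast and smooth muscle markers 10 were higher and 0 lower (median 0.39), and their part in the matrix and muscle counts was not tested.

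**Figure D4:**
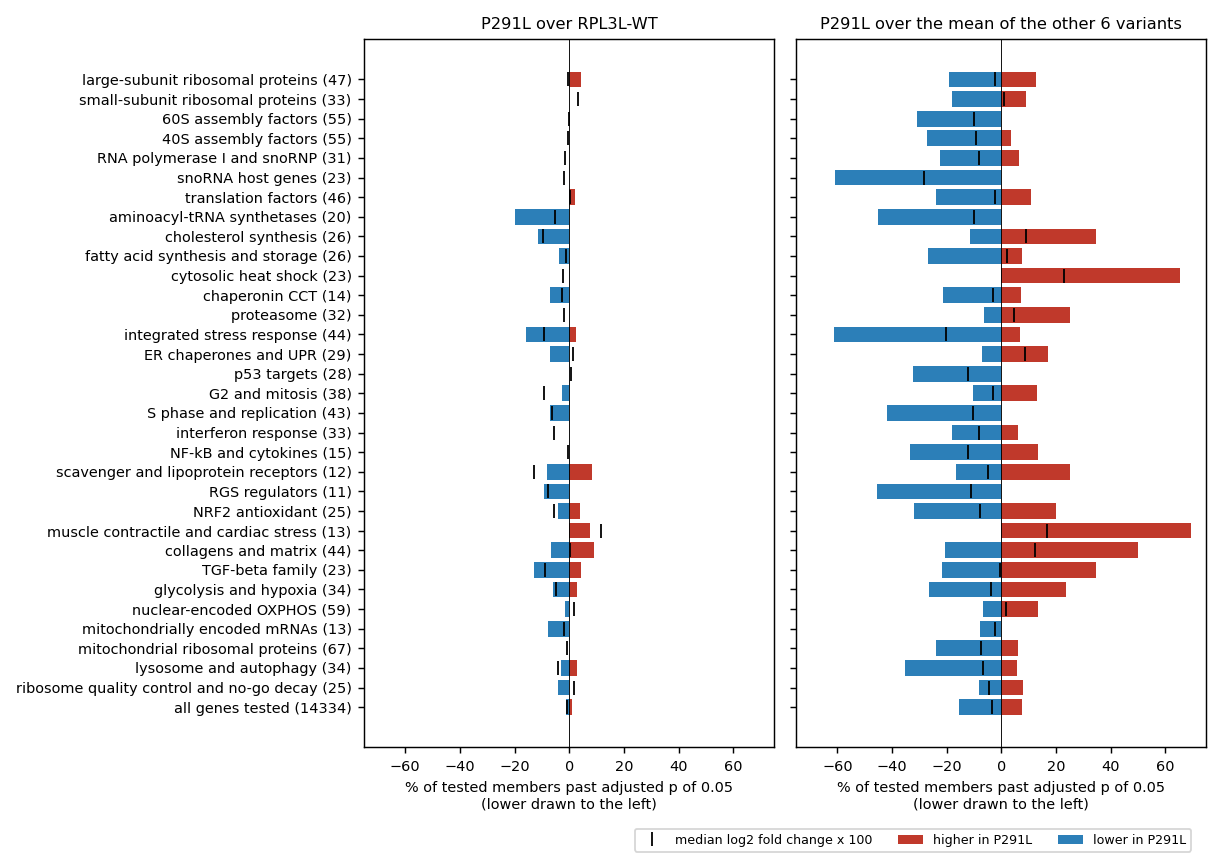
Bars give the percent of tested members of each list that passed an adjusted p of 0.05, higher in P291L to the right and lower to the left, against RPL3L-WT (left panel) and against the mean of the other 6 variants (right panel); ticks give the list's median log2 fold change times 100 and brackets the number tested. Bars are short throughout the left panel and long for heat shock, snoRNA host, integrated stress response and muscle genes in the right panel. The left panel sets 3 libraries against 3 and the right panel 3 against 18, so bar lengths are not directly comparable between panels. Of all genes tested, 2.06% were called on the left and 23.0% on the right.

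ATF4, ID1 and CALR had opposite signs in the 2 contrasts. ATF4 was higher than in RPL3L-WT by 0.16 and lower than the mean of the other 6 variants by a log2 difference of -0.29 (SE 0.02, limma adjusted p = 3.35e-10). ID1 was lower than in RPL3L-WT by -0.42 and higher than the mean of the other 6 variants at 0.34 (limma adjusted p = 1.01e-04). T189M was not below P291L for ID1, with means of 50.1 and 48.8 TPM, while the means of the remaining variants were. CALR was lower than in RPL3L-WT (-0.11) and higher than the mean of the other 6 variants (0.18, limma adjusted p = 9.27e-08). In first-kind libraries CALR averaged 847 TPM in P291L and 972 TPM in R161W, and stood at 1088 TPM in T189M 3. The first-kind means of the remaining variants lay below P291L. Against the mean of the other 6 variants SPARC stood at 0.76 (SE 0.02), CNN1 at 1.01 (SE 0.06) and LUM at 0.94 (SE 0.05). Against RPL3L-WT they stood at 0.41, 0.45 and 0.50. R161W was near or above P291L for these genes. Over first-kind libraries SPARC, CNN1 and LUM averaged 2779, 40.2 and 68.9 TPM in R161W, and 2311, 44.7 and 68.0 TPM in P291L. The first-kind means of the remaining variants lay below P291L for each of these genes.

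The 24 genes named by the rule were followed over all groups. Every P291L library exceeded all 27 other whole-cell libraries for OLR1, PRDM10, ZZEF1, CASD1, GDF6, LIN28A, PKP2, KCTD9 and IGFN1. The rule itself placed these genes above the 3 RPL3L-WT libraries among the 27. The share of all genes tested with this layout was not computed, so it is not shown to be particular to the named genes. The lower genes lacked the mirrored layout. FAM167A and SH2B3 came closest, each with 26 of the 27 libraries above all P291L libraries. The closest other library was a shScramble library for OLR1 (9.24 TPM), PRDM10 (5.58 TPM), ZZEF1 (24.5 TPM), CASD1 (8.37 TPM) and PKP2 (5.98 TPM), a G27D library for GDF6 (2.84 TPM) and LIN28A (3.27 TPM), D308V 3 for KCTD9 (73.3 TPM) and D308N 3 for IGFN1 (14.4 TPM). For PRDM10, ZZEF1 and KCTD9 the other 6 variants lay close together, with group means of 2.79 to 3.61 TPM for PRDM10, 13.4 to 16.9 TPM for ZZEF1 and 52.9 to 66.4 TPM for KCTD9. PLAC8 was higher in all 3 shScramble libraries than in any P291L library, with means of 70.2 TPM in P291L and 90.9 TPM in shScramble. ANXA8L1 averaged 20.0 TPM in R161W and SLC12A8 40.2 TPM in shRPL3, both above P291L.

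OLR1 varied widely across groups. It averaged 11.2 ± 1.00 TPM in P291L and 9.18 ± 0.0539 TPM in shScramble (SD, n = 3 each), the 2 highest groups. R161W (5.06 ± 1.04 TPM), G27D (4.05 ± 0.271 TPM), RPL3L-WT (3.54 ± 0.633 TPM) and T189M (3.18 ± 0.362 TPM) came next, and the libraries of RPL3L-WT overlapped those of each of these 3 variants, although R161W was called higher than RPL3L-WT (log2 fold change 0.37, limma adjusted p = 0.0392). D308N (1.59 ± 0.137 TPM), D308V (1.45 ± 0.168 TPM), shRPL3 (1.39 ± 0.299 TPM) and R343W (0.815 ± 0.252 TPM) were lowest. P291L was the only RPL3L group above shScramble, and D308N, D308V and R343W lay near or below shRPL3.

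Several lower genes had similar levels in other groups. RGS4 averaged 24.1 ± 1.64 TPM in P291L, and R161W (19.9 TPM), G27D (31.3 TPM), D308N (31.4 TPM) and shRPL3 (32.5 TPM) were also low. It averaged 61.1 ± 4.31 TPM in RPL3L-WT, near D308V (62.1 TPM), T189M (66.9 TPM) and R343W (68.6 TPM), with shScramble at 49.7 TPM. CXCL12 averaged 112 TPM in P291L and 102 TPM in D308N, the lowest means of the 10 groups, against 153 TPM in RPL3L-WT, 268 TPM in shRPL3 and 293 TPM in shScramble. G0S2 averaged 10.9 TPM in P291L and 10.2 TPM in R161W, against 19.0 to 44.2 TPM in the other 5 variants and 18.3 TPM in RPL3L-WT. It was lower still in shRPL3 (8.47 TPM) and shScramble (4.54 TPM). CGGBP1 was low in P291L (94.4 TPM) and R343W (97.54 TPM) and at 125 TPM or more in the other 8 groups. FAM167A and SH2B3 were lowest in P291L of all 10 groups, at 7.48 and 11.9 TPM.

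**Figure D5:**
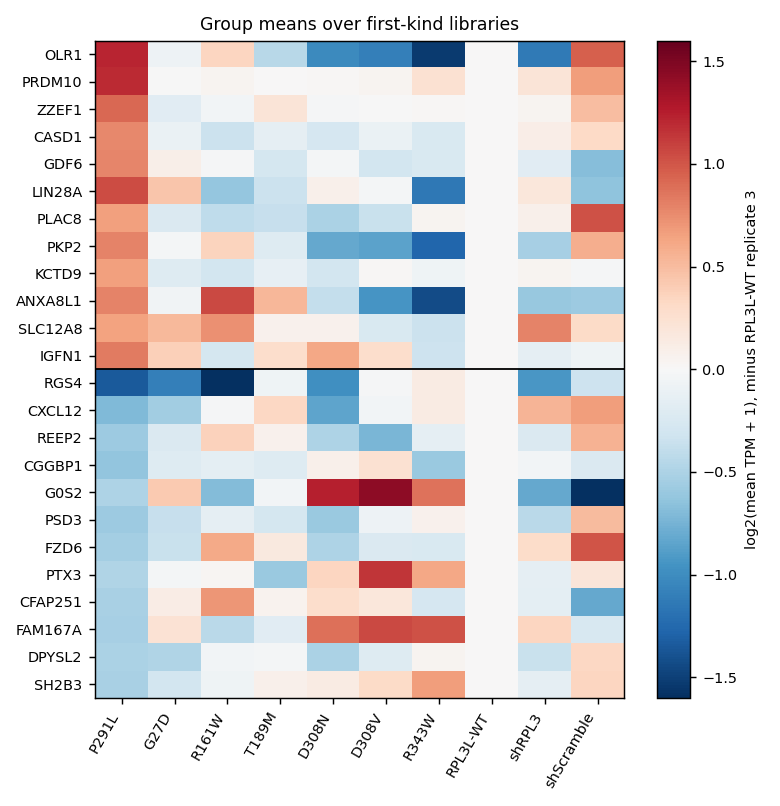
Level of each of the 24 genes in each group, as log2(mean TPM + 1) over the first-kind libraries of the group minus that of RPL3L-WT 3, which is 0 by construction; first-kind libraries number 3 per group except 2 in G27D and R161W and 1 in T189M and RPL3L-WT. The naming rule makes the P291L column red for all 12 higher genes above the line and blue for all 12 lower genes below it. RGS4 is blue in G27D, R161W, D308N and shRPL3 as well.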

How the data were processed

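Whole-cell polyA RNA was sequenced from TruSeq libraries, per the labels. Tools in the submitters' processing notes were bcl2fastq 2.19, Bowtie, bedtools and kallisto, without the step each served. No source used here names the index, annotation or genome build of the authors' quantification. TPM in the deposited table, computed by the authors, covered 60612 entries, 6 of them construct sequences that were left out of the tests. Each library summed to 1000000 TPM, and 0 columns were unmatched. Nuclear rRNA counts hold no P291L library and were not used here.

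Values entered the fits as log2(TPM + 1). limma 3.58.1 (R 4.3.3, eBayes with trend and robust options) was fitted over 30 libraries in 10 groups with library kind as a term, two-sided, with Benjamini-Hochberg adjustment over the 14334 genes and a threshold of 0.05, and was tested on simulated data. Single construct entries were compared by exact permutation. The alternatives were no kind term, the 24 first-kind libraries, the 2 groups only, median-ratio scaling, a pseudocount of 0.1, other filters on low TPM, a replicate block and leaving out each library. The named genes were the first 12 each way by fold change under the rule in the text, RPL3 and RPL3L, and up to 4 called members of each list. One called gene named by this rule is not reported here. The 32 lists and the 4 marker lists held 1146 symbols, of which 25 were absent from the table. The comparison, its members and the lists were chosen with earlier results of these data known. Gene positions and sequences came from GENCODE 29, which was not compared with the authors' annotation. Figures were drawn with matplotlib 3.10.9 in Python 3.11.15, and tables were made with pandas 2.3.3 and scipy 1.17.1.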

Additional observations from a re-analysis of the deposited data

Results flagged for a closer look

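The hairpin entry of the construct table, which no comparison above uses, stood at 5.48, 11.7 and 57.0 TPM in P291L 1, 2 and 3, against 17.5, 15.0 and 4.71 TPM in RPL3L-WT 1, 2 and 3. P291L 3 drew attention because its value was above all RPL3L-WT libraries, while RPL3 in that library, at 658 TPM, was near the 679 and 685 TPM of the other P291L libraries.

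ATF4 drew attention because P291L was higher than RPL3L-WT (log2 difference 0.16, limma adjusted p = 0.00327) and lower than the mean of the other 6 variants (log2 difference -0.29, adjusted p = 3.35e-10). The 2 contrasts share the P291L libraries, and the difference between them was not tested by itself.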

How the results depend on the processing

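The number of genes called depended on how the 2 kinds of library were handled. Genes higher in P291L than in RPL3L-WT numbered 125 with the kind term, 249 without it, 41 against RPL3L-WT 3 alone, 45 with median-ratio scaling added to that, 5 in a fit on the 2 groups only and 14 in that fit with the kind term. Genes lower in P291L than in RPL3L-WT numbered 170, 160, 105, 74, 2 and 18 in the same order. Leaving out 1 library at a time gave 70 to 154 higher and 94 to 173 lower with the kind term (72, 73 and 70 higher and 105, 94 and 107 lower without P291L 1, 2 and 3, and 108 lower without RPL3L-WT 3), and in the first-kind libraries without 1 of the P291L replicates 24, 27 and 28 higher and 56, 52 and 66 lower, so a single P291L library moved the counts by over 1.5 times. These 3 fits and the one with median-ratio scaling were chosen after seeing the data. Against the other 6 variants, 1099 higher and 2200 lower genes became 635 and 932 without the kind term. The cause of these changes was not tested, except that fewer libraries leave fewer degrees of freedom.

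Without the kind term and in the 2 groups only, the sign turned for FARSB (0.067), PSAT1 (0.052), BNIP3 (0.10), COX4I1 (0.0019) and VCP (0.079), all lower in P291L with the term and all with RPL3L-WT 1 and 2 below every P291L library. RPL3 and RPL3L stayed short of the threshold in every alternative run. Of the 24 genes named by the rule, 20 passed without the kind term, 3 in the 2 groups only, 7 in the 2 groups with the kind term, 18, 18 and 19 in the first-kind libraries without P291L 1, 2 and 3, 23 without RPL3L-WT 3 and 24 with median-ratio scaling, a pseudocount of 0.1, no filter or without any other single library.

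Whether replicate numbers pair the samples is not known, and the main fit did not pair them. Same-numbered P291L and RPL3L-WT residuals correlated weakly, at 0.05, 0.05 and 0.04. Differently numbered ones correlated at -0.04 to -0.0007. Residuals of the P291L libraries cancel out for each gene, so these negative values follow from the positive ones and add nothing to them. With a replicate block 121 genes were higher and 157 lower. TPM keep no depth, so counting error could not be given, and only 1 RPL3L-WT library shares the kind of the P291L libraries.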
